A study of Mus musculus with 8 samples.

Results

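The mRNAs of 10 Krüppel-like factor (KLF) genes were followed in cultured mouse lung group 2 innate lymphoid cells (ILC2s) given Yoda1, a chemical agonist of the mechanosensitive channel Piezo1, or the vehicle DMSO. The members were taken by their gene symbols (Klf2, Klf3, Klf4, Klf6, Klf7, Klf9, Klf10, Klf11, Klf12 and Klf13), and all 10 were listed among the 23183 genes of every library and were among the 12239 genes with enough reads for testing. The series holds 8 bulk libraries of poly(A)-selected RNA, 4 from cells exposed to 5 µM Yoda1 and 4 from cells exposed to 0.1% DMSO, each for 3 h. All cells came from wild-type C57BL/6 mice; the study's methods give an age of 6 to 10 weeks and both sexes for its animals, and treatment of the ILC2 donors with IL-33. Cells of both groups were therefore activated before the comparison: they were enriched by antibody kits and expanded with IL-2, IL-7 and IL-33. No source used here says whether the 4 libraries of a group came from separate mice or cultures, so the p-values measure only the spread between these libraries, which may be technical.

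KLFs are transcription factors that bind GC-rich and CACCC-containing DNA through zinc fingers at their C-terminal end, and their N-terminal parts differ and recruit activators or repressors. In lymphocytes the family is best known for KLF2, which keeps resting cells out of cycle and turns on genes of tissue exit such as the sphingosine phosphate receptor gene S1pr1. Other members respond within hours to outside signals: KLF10 and KLF11 were found as TGF-β-inducible genes, KLF9 responds to glucocorticoid and thyroid hormones, and KLF6 is an early response gene in injured tissue.

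In these cells Klf2 and Klf6 rose with Yoda1 and Klf10 fell, while the other 7 members did not pass the test. Klf2 rose 1.60-fold from a low level. Klf6, by far the most abundant member, rose 1.18-fold, and Klf10 fell to 0.802 of its DMSO level. The 3 called genes are 2 higher and 1 lower out of 10, where 10.9% of all genes tested were called, 6.04% higher and 4.84% lower (edgeR quasi-likelihood test, Benjamini-Hochberg adjusted p under 0.05 over all 12239 genes). The groups did not overlap for 4 of the 10 members, the 3 called genes and Klf3, against 15.5% of all genes tested. The median log2 fold change over the 10 members was 0.10 and that over all genes tested was -0.0053, and 7 of the 10 members lay above 0. The members were chosen with earlier results of these data known, so none of these shares is a test of the family.

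The stretch upstream of each gene that rose is shown because these are the called members for which a promoter sequence was at hand. The 200 bases below run from 250 bases before the RefSeq transcription start (GRCm38, plus strand), Klf2 at chr8:72318812-72319011 and Klf6 at chr13:5861239-5861438, and capitals mark a MEF2 box and a TGACG cyclic AMP response half-site.
Klf2: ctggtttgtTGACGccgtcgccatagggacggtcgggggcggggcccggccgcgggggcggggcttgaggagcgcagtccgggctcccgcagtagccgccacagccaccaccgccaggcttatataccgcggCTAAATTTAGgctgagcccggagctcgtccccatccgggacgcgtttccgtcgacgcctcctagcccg
Klf6: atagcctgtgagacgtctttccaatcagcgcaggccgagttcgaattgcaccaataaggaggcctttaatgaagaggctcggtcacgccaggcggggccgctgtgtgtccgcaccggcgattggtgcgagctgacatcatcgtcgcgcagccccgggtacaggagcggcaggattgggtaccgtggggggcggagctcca

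The motifs were searched on both strands in RefSeq windows of 300 bases, from 250 before to 50 after the start, of which 9 of the 10 members had 1 each. The windows of Klf7 and Klf12 lay wholly inside the spans of these genes in GENCODE M21, not at their outermost starts. For Klf12 the window was chr14:100149747-100150046, in a minus-strand gene that runs to 100284679. A MEF2 box, the binding site of MEF2 factors, was found in the Klf2 window, 118 to 109 bases before the start, and in none of the other 8 member windows; 0.557% of all 32851 windows and 0.346% of the 11864 windows of tested genes hold it. A TGACG half-site was found in the windows of Klf2, Klf3, Klf4, Klf9, Klf12 and Klf13, and not in those of Klf6, Klf7 and Klf11, against 20.8% of all windows and 31.3% of those of tested genes. Every member window except that of Klf12 (45.7% GC) lay above the median of all windows, 52.7% GC. Those above it ran from 58.3% (Klf7) to 77.7% (Klf11). The part of base composition in these matches was not tested. A CArG box, the serum response factor site, was found in 0 of the 9 windows and in 1.63% of all windows and 1.22% of those of tested genes. The GC box GGGCGG, a site that KLF and Sp proteins bind, was found in 2 copies in the Klf2 window and 1 copy in the Klf6 window. Members without a call held it too: Klf3, Klf4, Klf7, Klf11 and Klf13, with 1 copy (Klf7) to 6 copies (Klf3). The GC box is held by 35.7% of all windows and 62.4% of those of tested genes. The related CACCC element was found in the Klf2 window and not in the Klf6 window (57.5% of all windows and 63% of those of tested genes). It was also found in the windows of Klf3, Klf7, Klf9, Klf12 and Klf13, which had no call. These are matches of letters, not measured binding.

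**Figure D1:**
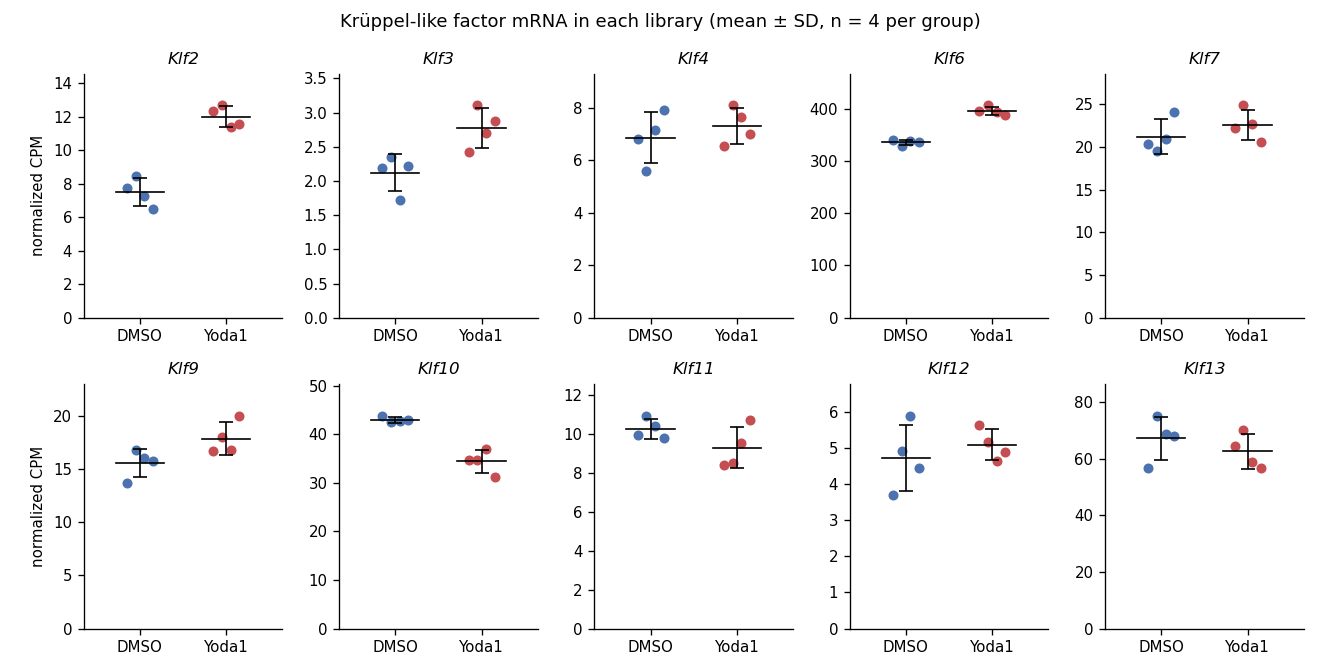
Normalized CPM (TMM-scaled counts) of each member in the 4 DMSO (blue) and 4 Yoda1 (red) libraries, with mean and SD as black lines and each axis starting at 0. The groups are separate for Klf2, Klf3, Klf6 and Klf10 and overlap for the other 6 members.

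Klf2 encodes the quiescence and tissue exit factor described above. In normalized CPM (counts scaled to a common library size after TMM normalization) it measured 7.76, 8.43, 7.29 and 6.50 in DMSO replicates 1 to 4, and 12.4, 12.7, 11.4 and 11.6 in Yoda1 replicates 1 to 4. Every Yoda1 library lay above every DMSO library. The means were 7.50 ± 0.812 and 12.0 ± 0.608 CPM (SD, n = 4 each), and the log2 fold change stood at 0.67 ± 0.098 (± standard error, 95% interval 0.47 to 0.87, edgeR adjusted p = 1.89e-05). In the two-sided exact permutation test p was 0.0286, the smallest that 4 against 4 libraries allow. Klf2 ranked 81 from the top when all genes tested were ordered by log2 fold change. The DMSO libraries held 88 to 154 Klf2 reads and the Yoda1 libraries 152 to 225.

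Klf6 encodes an early response activator. Its CPM were 339, 329, 339 and 336 in the DMSO libraries and 396, 406, 393 and 388 in the Yoda1 libraries. The libraries of each group lay close together, with a coefficient of variation of 1.46% in DMSO and 1.95% in Yoda1, and the groups did not overlap. The means were 336 ± 4.90 and 396 ± 7.70 CPM (SD, n = 4 each), which is 0.24 ± 0.034 in log2 units (± standard error, 95% interval 0.17 to 0.31, edgeR adjusted p = 1.15e-05, exact permutation p = 0.0286). By read abundance Klf6 outranked 96.5% of the genes tested, with 4542 to 7539 reads per library. Klf6 reads made up 65.3% of the summed CPM of the 10 members in DMSO and 69.5% in Yoda1. That sum was 514 ± 6.93 CPM in DMSO and 569.6 ± 16.0 in Yoda1 (SD, n = 4 each), again with no overlap (exact permutation p = 0.0286). Because most of the sum is Klf6, this test repeats the Klf6 result and shows no rise of the family beyond it. The mean of Klf6 rose by more CPM than the mean of the sum, so the summed mean of the other members was not higher with Yoda1.

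Klf7, the member most closely related to Klf6 and best known from neurons, measured 20.3, 19.5, 20.9 and 24.1 CPM in the DMSO libraries and 22.2, 24.8, 22.7 and 20.5 in the Yoda1 libraries. The groups overlapped, and the log2 fold change was 0.095 (95% interval -0.060 to 0.25, edgeR adjusted p = 0.469). Exons of the opposite-strand genes Gm13748 and Gm26649 overlap those of Klf7, and the strand setting of the counting is not given in the sources used here.

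Klf4, a relative of Klf2 that drives cell cycle exit and is also a pluripotency factor, measured 6.82, 5.59, 7.16 and 7.91 CPM with DMSO and 6.54, 8.10, 7.65 and 7.00 with Yoda1. The groups overlapped throughout, with a log2 fold change of 0.11 (95% interval -0.13 to 0.35, edgeR adjusted p = 0.623).

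Klf10 encodes a TGF-β-inducible repressor. Its CPM were 43.7, 42.4, 42.6 and 42.9 in the DMSO libraries and 34.7, 34.6, 37.0 and 31.3 in the Yoda1 libraries. The DMSO libraries were almost level, the Yoda1 libraries spread more widely, and all 4 of these lay below all DMSO libraries. The means were 42.9 ± 0.546 and 34.4 ± 2.35 CPM (SD, n = 4 each), which is -0.33 ± 0.056 in log2 units (± standard error, 95% interval -0.44 to -0.21, edgeR adjusted p = 0.000153, exact permutation p = 0.0286).

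Klf11, its nearest relative and a TGF-β-inducible gene too, measured 9.95, 10.9, 10.4 and 9.76 CPM with DMSO and 8.40, 8.52, 9.52 and 10.7 with Yoda1. Yoda1 replicate 4 lay within the DMSO range and the other Yoda1 libraries below it. The log2 fold change was -0.14 (95% interval -0.34 to 0.066, edgeR adjusted p = 0.420).

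Klf9, a hormone-responsive repressor, measured 13.7, 16.8, 16.1 and 15.8 CPM in the DMSO libraries and 16.7, 18.1, 16.8 and 20.0 in the Yoda1 libraries. The groups overlapped narrowly at the top of the DMSO range. Its log2 fold change of 0.21 had an unadjusted p of 0.0177 and did not pass the adjustment (standard error 0.082, 95% interval 0.038 to 0.37, edgeR adjusted p = 0.106).

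Klf13, which takes part in the late expression of the chemokine gene Ccl5 in T cells, measured 56.6, 75.0, 68.9 and 68.2 CPM in the DMSO libraries and 64.7, 70.2, 58.8 and 56.8 in the Yoda1 libraries. DMSO replicate 1 was low beside the other DMSO libraries. The log2 fold change was -0.11 (95% interval -0.32 to 0.11, edgeR adjusted p = 0.553), and without DMSO replicate 1 it was -0.18, with an edgeR adjusted p of 0.0458.

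Klf3 and Klf12 encode repressors that bind the corepressor CtBP, and these were the members with the fewest reads. Klf3 measured 2.19, 2.35, 1.73 and 2.22 CPM with DMSO and 2.42, 3.10, 2.70 and 2.88 with Yoda1, from 27 to 56 reads per library. The groups did not overlap, but the log2 fold change of 0.40 did not pass the adjustment (standard error 0.186, 95% interval 0.015 to 0.78, edgeR adjusted p = 0.180, unadjusted p = 0.0421). Exons of the opposite-strand gene Gm20033 overlap Klf3.

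Klf12 measured 3.69, 4.93, 5.88 and 4.43 CPM in the DMSO libraries and 5.65, 5.17, 4.65 and 4.89 in the Yoda1 libraries. The Yoda1 values lay inside the DMSO range, and the log2 fold change was 0.096 (95% interval -0.19 to 0.39, edgeR adjusted p = 0.733). Its sign was not fixed by these data, since it was -0.0077 without DMSO replicate 1. The intervals of Klf3 and Klf12, and those of Klf4, Klf7 and Klf9, all include the log2 fold change of 0.24 measured for Klf6. A rise of that size in any of them lay within their error.

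**Figure D2:**
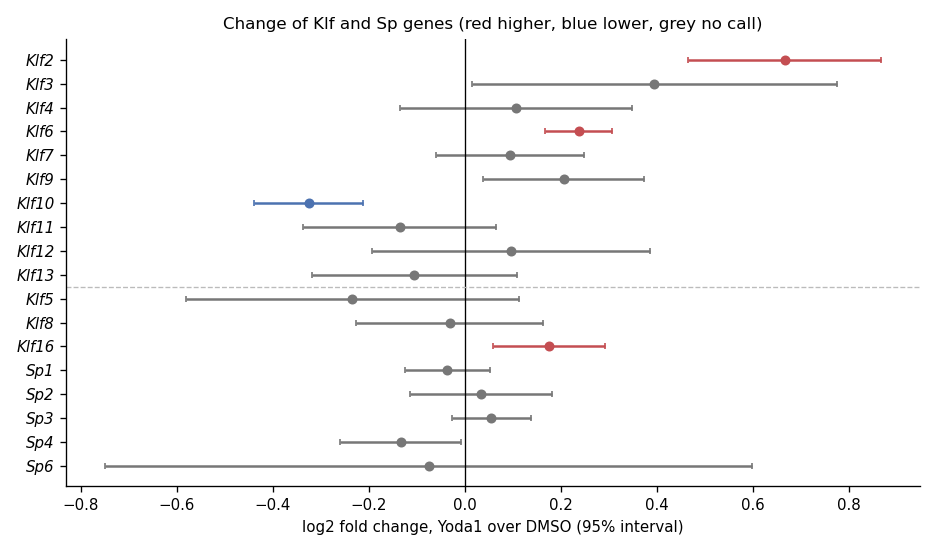
Log2 fold change of Yoda1 over DMSO with its 95% interval (edgeR) for the 10 members (above the dashed line) and for the other tested Klf and Sp genes (below it). Red and blue mark genes called higher and lower and grey marks genes with no call; Klf2 and Klf6 lie to the right of 0 and Klf10 to its left, and Klf16 is the called gene below the line.

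The change of a gene was then set against that of a relative within each library, as the log2 ratio of their CPM. In the two-sided exact permutation test over 6 such pairs, chosen after the data were seen, 2 pairs were separate between the groups: Klf2 to Klf6 and Klf9 to Klf13. The log2 ratio of Klf2 to Klf6 ran from -5.69 to -5.28 in DMSO and from -5.11 to -5.00 in Yoda1, a difference of 0.45 (p = 0.0286, adjusted over the 6 pairs 0.0857, exact permutation test). These 2 genes already differed in their fold changes, and with 6 pairs an adjusted p under 0.05 could be reached only if at least 4 pairs were separate. For Klf9 to Klf13 the difference was 0.30 (p = 0.0286, adjusted 0.0857, exact permutation test). The ratio of Klf10 to Klf11 overlapped between the groups, with a difference of -0.17 (exact permutation p = 0.171), so a fall of Klf10 beyond that of Klf11 was not shown. The same held for Klf2 against Klf4, with a difference of 0.59 (exact permutation p = 0.0571).

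Levels can be compared between genes only per length, here as mean CPM per kb of merged exons in GENCODE M21. On this scale Klf6 led with 76.4 ± 1.12 in DMSO and 90.1 ± 1.75 in Yoda1 (SD, n = 4 each). Among the members Klf10 followed in DMSO with 10.3 ± 0.131, then Klf13 with 8.92 ± 1.02 and Klf2 with 4.06 ± 0.440. These 4 did not overlap from 1 to the next in the DMSO libraries. Klf9 at 3.24, Klf7 at 2.61, Klf11 at 2.36 and Klf4 at 2.25 CPM per kb formed a run in which each overlapped the next. Klf12 at 0.678 and Klf3 at 0.189 stood below them, apart from each other.

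In the Yoda1 libraries Klf10 had come down to 8.23 ± 0.562 CPM per kb and overlapped Klf13 at 8.31 ± 0.805. Klf2 had come up to 6.49 ± 0.329, still under Klf10 and without overlap. Apart from Klf10 and Klf13, the order was the same in both groups except that Klf4 and Klf11, which overlapped, changed places. Merged exon length is not the length of the transcript that these cells make: for Klf3 the merged exons span 11.2 kb and the principal transcript 5221 bases, which would put its DMSO level at 0.406 CPM per kb, still the lowest of the members.

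**Figure D3:**
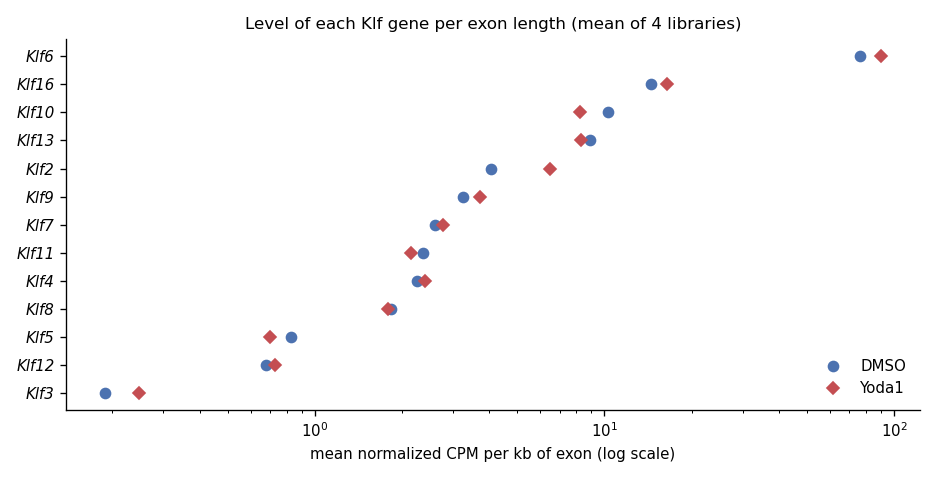
Mean normalized CPM per kb of merged exon (log axis) of each Klf gene with more than trace reads, in DMSO (blue circles) and Yoda1 (red diamonds), ordered by the DMSO level. Klf6 lies far to the right of all other genes, and Klf2 shows the widest gap between the groups.

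Each member is a protein-coding gene on a chromosome of its own in GENCODE M21 (GRCm38). Klf2 is the most compact, from 72319033 to 72321656 on the plus strand of chromosome 8, with 3 exons in its principal transcript. Klf6 spans 5861482 to 5870394 on the plus strand of chromosome 13, with 4 exons. Klf10 spans 38291463 to 38300706 on the minus strand of chromosome 15, also with 4 exons. No exon of another annotated gene overlaps these 3.

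Of the other Klf genes, Klf5, Klf8 and Klf16 had enough reads to be tested, and Klf1, Klf14, Klf15 and Klf17 were at or under the floor of 3 reads in each library. Klf16, a repressor related to Klf9 and Klf13, measured 40.2, 40.5, 39.8 and 34.6 CPM with DMSO and 40.0, 45.2, 45.2 and 44.8 with Yoda1. Yoda1 replicate 1 lay within the DMSO range and the other 3 Yoda1 libraries above it. Klf16 was called higher at 0.18 ± 0.058 in log2 units (± standard error, edgeR adjusted p = 0.0457), but this was lost in 11 of 15 other fits (adjusted p from 0.0252 to 0.165). Of the Sp genes, zinc finger relatives that bind the same GC boxes, 5 were tested and 0 passed by edgeR, where 10.9% of all genes did, with log2 fold changes from -0.13 to 0.055.

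Genes upstream of Klf2 were examined as a list of 20. It covered the MEKK, ERK5 and MEF2 kinase path, the class II histone deacetylases that hold MEF2 back, and the FOXO factors. Prkaa1, Ccm2, Krit1, Pdcd10 and Heg1 were in the list as well. Of 18 tested, 1 was higher and 0 were lower, which is 5.56% against the 10.9% of all genes, and the median log2 fold change was 0.021. The called gene was Mef2d, a MEF2 factor. It measured 63.8, 65.9, 67.8 and 63.6 CPM with DMSO and 70.3, 77.4, 76.0 and 72.1 with Yoda1, with no overlap and a change of 0.18 ± 0.045 in log2 units (± standard error, edgeR adjusted p = 0.00805). Foxo1, which drives Klf2 in T cells, had a change of -0.13 in log2 units with an edgeR adjusted p of 0.104.

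Genes of quiescence and tissue exit that are linked to Klf2 went both ways. Of the 20 tested in a list of 21, 4 were higher and 3 lower, or 35% against 10.9% of all genes, with a median log2 fold change of 0.038. The list was written with earlier results of these data known, so that share is no test of such genes. The higher genes included the antiproliferative factors Btg2 (log2 fold change 0.28, edgeR adjusted p = 2.07e-05), Btg1 (0.16, adjusted p = 0.00212) and Tob2 (0.19, adjusted p = 0.00239), and Cxcr4, a chemokine receptor (0.23, adjusted p = 0.0140). The lower genes were the transcription factors Lef1 (-0.39, edgeR adjusted p = 3.07e-05) and Tcf7 (-0.42, adjusted p = 0.0134) and S1pr1. S1pr1, which KLF2 is known to activate, measured 35.2, 38.0, 37.7 and 38.4 CPM with DMSO and 33.7, 32.7, 30.4 and 33.7 with Yoda1. All Yoda1 libraries lay below all DMSO libraries, opposite in direction to Klf2, a change of -0.19 ± 0.056 in log2 units (± standard error, edgeR adjusted p = 0.0257). That call was lost in 5 of 15 other fits (adjusted p from 0.00946 to 0.0940).

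The TGF-β list was examined beside Klf10 and Klf11. Of 26 genes tested, 3 were higher and 0 lower, or 11.5% against 10.9% of all genes, with a median log2 fold change of -0.049. Tgif1, a corepressor of SMAD proteins (0.33, edgeR adjusted p = 0.00627), Pmepa1, an inhibitor of the pathway (0.20, adjusted p = 0.00147), and Itgav, an integrin subunit that releases active TGF-β (0.31, adjusted p = 0.0153), were the higher genes. Tgfb1 (0.033) and Tgfbr2 (-0.018) did not pass, and Smad7, an inhibitory target of the pathway, had a change of -0.19 in log2 units with an edgeR adjusted p of 0.0589.

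Genes that glucocorticoids induce, as they do Klf9, were called in both directions. Of 16 tested, 3 were higher and 4 lower, or 43.8% against 10.9% of all genes, with a median log2 fold change of 0.048. The list was written with earlier results of these data known, so that share is no test of glucocorticoid-induced genes. Per1, a clock gene, rose from 51.7 ± 1.98 to 73.6 ± 2.79 CPM (SD, n = 4 each), which is 0.51 ± 0.047 in log2 units (± standard error, edgeR adjusted p = 3.21e-09). Zfp36 (0.43, edgeR adjusted p = 0.00138), whose protein speeds mRNA decay, and the MAP kinase phosphatase gene Dusp1 (0.38, adjusted p = 0.00189) rose as well. Txnip, a brake on glucose uptake, fell from 694 ± 12.1 to 473 ± 5.90 CPM (SD, n = 4 each), which is -0.55 ± 0.033 in log2 units (± standard error, edgeR adjusted p = 3.22e-13). Fkbp5 (-0.17, edgeR adjusted p = 0.00389) and Tsc22d3 (-0.23, adjusted p = 0.00479), both widely used as readouts of glucocorticoid receptor activity, were lower, as was Pik3ip1 (-0.23, adjusted p = 0.0335), whose groups overlapped and whose call was lost in 8 of 15 other fits (adjusted p from 0.0127 to 0.125).

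Among 23 partners and ubiquitin ligases of KLF proteins, 1 was higher and 0 lower, or 4.35% against 10.9% of all genes, with a median log2 fold change of 0.026. The called gene was Zeb2, a zinc finger repressor that recruits CtBP (0.21, edgeR adjusted p = 0.00326). The CtBP genes themselves, which serve Klf3 and Klf12, had log2 fold changes of 0.087 for Ctbp1 and -0.036 for Ctbp2 (edgeR adjusted p = 0.133 and 0.745).

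**Figure D4:**
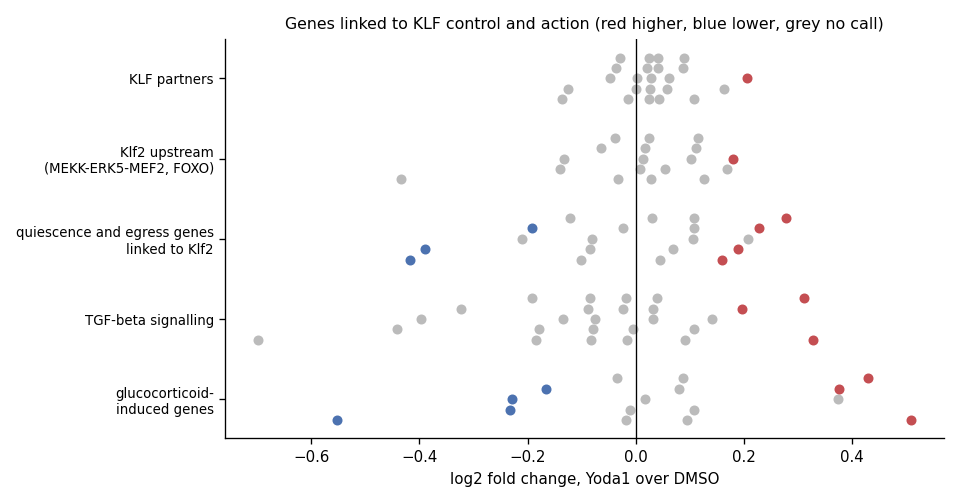
Log2 fold change of Yoda1 over DMSO for each tested gene of 5 lists linked to the control or action of KLFs, with points spread vertically only for legibility. Red and blue mark genes called higher and lower by edgeR; the lists on quiescence and glucocorticoid response hold calls in both directions.

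The 3 member calls did not rest on a single library or setting. In 15 other fits Klf2 had log2 fold changes from 0.61 to 0.73, Klf6 from 0.21 to 0.25 and Klf10 from -0.36 to -0.28, and all 3 passed in each of them. Klf3, Klf4, Klf7, Klf9, Klf11 and Klf12 passed in 0 of the 15 (edgeR, DESeq2 and limma-voom fits included). In the reported edgeR fit 5 of the 10 members had an unadjusted p under 0.05, against 25.3% of all genes tested. That share is no test of the family either, since the members were chosen with earlier results known.

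**Figure D5:**
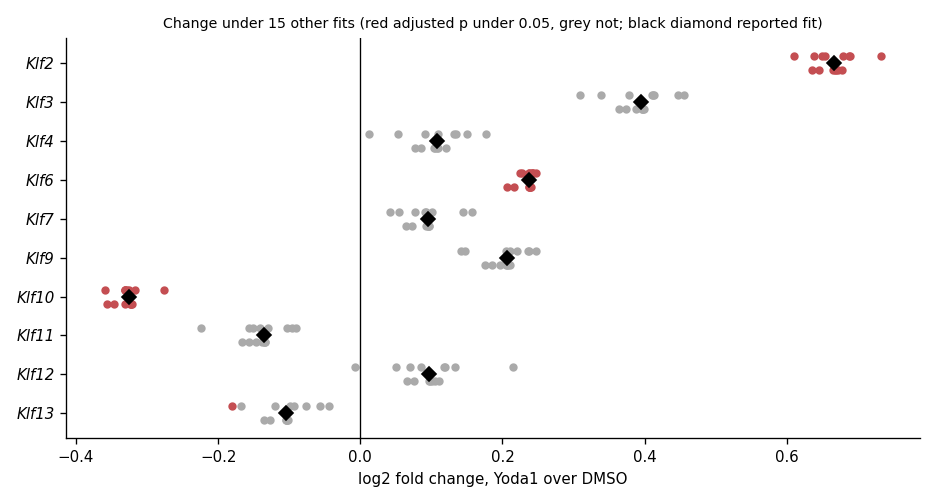
Log2 fold change of each member in the reported fit (black diamond), in the 8 fits that each left out a library (upper row of points) and in 7 fits with another scaling, filter, model or block (lower row). Red points passed an adjusted p of 0.05; for Klf2, Klf6 and Klf10 every point is red, and Klf13 has a single red point.

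Library totals ran from 12438009 to 19534653 reads, so that 1 read was worth 0.0514 to 0.0807 CPM. TMM factors were 1.003 to 1.010 in DMSO and 0.988 to 0.997 in Yoda1. The factors did not overlap between the groups, so this scaling raised Yoda1 values relative to DMSO values. The 739 higher and 592 lower genes became 505 and 958 with upper-quartile factors and 553 and 809 with library size alone. All 15 ILC2 markers were over the floor of 3 reads, among them Gata3, Il1rl1, Rora and Il13, and their summed level was 17905 to 18453 CPM in DMSO and 20162 to 20534 in Yoda1. Of these markers 6 were called higher and 1 lower, or 46.7% against 10.9% of all genes, with a median log2 fold change of 0.11. Most of the difference in the sum lay in the cytokine gene Il13, at 5431 ± 187 CPM in DMSO and 6667 ± 114 in Yoda1 (SD, n = 4 each). Il1rl1 measured 1528 ± 43.6 CPM in DMSO and 1668 ± 58.2 in Yoda1, without overlap. Gata3 was at 565 CPM in both groups, Rora and Id2 did not pass the test, and Icos was the lower gene (log2 fold change -0.18, edgeR adjusted p = 0.000601). The part of these genes in the rise of Klf2 and Klf6 was not tested. KLF2 and KLF4 are strongly made in blood vessel lining and KLF2 in NK and T cells, so markers of these were summed. The vessel and stroma markers summed to 214 to 230 CPM in DMSO and 219 to 224 in Yoda1, almost all of it Pecam1, while Cdh5, Tek and Vwf had at most 3 reads in any library. Of 11 T cell markers, 8 were among the genes listed in the libraries and the others could not be read. Those 8 summed to 112 to 123 CPM in DMSO and 119 to 128 in Yoda1. All 8 were tested and 0 were called, where 10.9% of all genes were, with a median log2 fold change of 0.13. All 8 NK cell markers were over the floor and summed to 785 to 865 CPM in DMSO and 844 to 912 in Yoda1, with Ncr1 at 4.42 and 3.70 CPM. Of 7 tested, 3 were called higher (Eomes, Prf1 and Tbx21) and 0 lower. That is 42.9% against 10.9% of all genes, with a median log2 fold change of 0.14. The part of these NK cell markers in the rise of Klf2 was not tested either. B cell, macrophage and mast cell or basophil markers each summed to under 12 CPM in every library, with Pax5 and Marco at 0 reads. In bulk RNA, fewer cells of a type and less RNA per cell cannot be told apart.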

How the data were processed

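Per the labels, RNA of 8 samples of cultured lung ILC2s was made into libraries with the NEBNext Ultra II Directional kit. Each library has a table of whole-number read counts by gene symbol, deposited without normalization. FastQC, FASTX Trimmer and BBMap for read quality and Cufflinks for expression are named in the methods, and the submitters' processing notes name TopHat and mm10. The read counter, annotation and strand setting are not given in the sources used here.

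Genes were filtered with filterByExpr (minimum count 10, minimum total 15), scaled with TMM and compared in R 4.3.3 with edgeR 4.0.16 (robust quasi-likelihood test, group as the only term, Benjamini-Hochberg adjustment over all genes tested, threshold 0.05). Standard errors are the absolute log2 fold change over the root of F. Single values were compared by a two-sided exact permutation test over 70 assignments. The methods name Cuffdiff, which cannot be run on counts. The fit was tested on simulated data.

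The named genes are the 10 members, the called genes of each other list (up to 6, by smallest adjusted p) and members at or near 0. Outside that rule, S1pr1, Pik3ip1, Klf5, Klf8, Foxo1, Tgfb1, Tgfbr2, Smad7, Ctbp1, Ctbp2 and the single marker genes were chosen after their values were seen, as were the 6 pairs. Prkaa1, Ccm2, Krit1, Pdcd10 and Heg1 are named only to describe their list. Members and lists were chosen with earlier results of these data known. Alternatives were DESeq2 1.42.0, limma-voom (limma 3.58.1), other scalings and filters, a fit blocked on replicate number, and the omission of each library in turn. Counting error alone underlies the floor of 3 reads. Promoter windows came from RefSeq (GRCm38.p6) and gene models from GENCODE M21, which share the build GRCm38 (mm10); no window was at hand for Klf10.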

Additional observations from a re-analysis of the deposited data

Results flagged for a closer look

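In 4 of 60 groups of 4 libraries (30 named genes, DMSO and Yoda1), a single library stood apart from the other 3 by Dixon's test, where chance gives about 3. For Klf16, DMSO replicate 4 was low at 34.6 CPM (next 39.8) and Yoda1 replicate 1 was low at 40.0 (next 44.8). Yoda1 replicate 2 was high for Pmepa1, at 187 CPM (next 171), and for Itgav, at 244 CPM (next 209). No group of the 10 members had such a library.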

How the results depend on the processing

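Over 15 alternatives, 148 of 150 member values kept their call and direction. Both exceptions arose without DMSO replicate 1: Klf13 gained a call (log2 fold change -0.18, edgeR adjusted p = 0.0458), and Klf12 turned to -0.0077 (edgeR adjusted p = 0.982), within a range of -0.0077 to 0.21 when each library was left out. Members called lower thus numbered 1 to 2 over these omissions. The cause was not tested. The spread between 2 libraries of a group was measured as chi-square per gene, near 1 where counting error alone acts. DMSO pairs that held DMSO replicate 1 gave 4.53 to 6.94, and the other DMSO pairs 2.90 to 3.69. Yoda1 pairs gave 2.03 to 4.56. Over all genes, 958 in place of 592 were called lower with upper-quartile factors, and leaving out each library gave 367 (without DMSO replicate 2) to 677 (without DMSO replicate 1). With a replicate block 548 genes were higher and 418 lower, and of the members 2 were higher and 1 lower, with log2 fold changes of 0.68 for Klf2, 0.24 for Klf6 and -0.32 for Klf10. No pairing by replicate number was seen: deviations of same-numbered libraries correlated at -0.028 to 0.071 over 4 pairs, and 1 sample had its own number as best partner. With 4 pairs this cannot show that the samples were unpaired. Of 20 called genes in the other lists (cell type markers aside), 14 kept their call in all alternatives, which for these genes were chosen after seeing the data; Klf16 lost it in 11 of 15, Pik3ip1 in 8 and S1pr1 in 5, Tcf7 without Yoda1 replicate 1, Cxcr4 without Yoda1 replicate 2 and Itgav without DMSO replicate 2. Alternatives were not run for the called marker genes. Klf3, at 27 to 56 reads per library, is the member for which depth limits most.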
